A study of Mus musculus with 35 samples.

Results

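The genes described here encode the constitutive proteasome and the proteins that share its nomenclature. They are all genes on the array whose symbol is Psma, Psmb, Psmc or Psmd followed by a number, leaving out Psmb8, Psmb9 and Psmb10, the inducible catalytic subunits. The rule used names only and no measured value. It found 36 of the 18193 genes that have a probe set of their own, and each gene was read from the probe set with the highest mean signal. There were 16 genes of the core particle (Psma1 to Psma8, Psmb1 to Psmb7 and Psmb11) and 20 of the regulatory particle (Psmc1 to Psmc6 and Psmd1 to Psmd14). All 36 passed the filter on low signals, as did 12678 genes in all. The data are array signals of total RNA of 35 BALB/c mice, 1 array per mouse, whose liver was sampled at its left lateral lobe 6 h after 1 intravenous injection. The control mice received deionized water. The other mice received silica particles, called SP70 at 10, 20 or 40 mg/kg, SP30 at 10 mg/kg or SP300 at 10 or 200 mg/kg, with 5 mice in each of the 7 groups. The study asked how the liver's response depends on the dose of SP70 and on the size of the particle, both at 10 mg/kg and at doses it had found toxic (10 mg/kg of SP30, 40 mg/kg of SP70 and 200 mg/kg of SP300). No group received an unrelated particle, so the water group is the reference for every particle.

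The proteasome degrades proteins that carry ubiquitin chains. Its core particle is a barrel of stacked rings: the outer alpha rings, built from Psma proteins, gate the entry, and the inner beta rings, built from Psmb proteins, hold the catalytic sites of Psmb6, Psmb7 and Psmb5. The regulatory particle that caps the barrel has a base and a lid. The base contains the ring of ATPases, encoded by Psmc genes, which unfold the substrate and thread it into the core, with the scaffold subunits Psmd1 and Psmd2 and the ubiquitin receptor Psmd4. The lid contains Psmd14, the enzyme that removes the ubiquitin chain, and the structural subunits Psmd3, Psmd6, Psmd7, Psmd8, Psmd11, Psmd12 and Psmd13. Psmd5, Psmd9 and Psmd10 carry Psmd symbols but are chaperones that hold parts of the base during assembly and leave the finished particle. During inflammation Psmb9, Psmb10 and Psmb8 can take the places of Psmb6, Psmb7 and Psmb5, which gives the immunoproteasome. When proteasome activity is short, the transcription factor NRF1, encoded by Nfe2l1, raises the transcription of proteasome genes.

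Signals are linear intensities per probe set, and the median of all probe sets on an array ran from 149 to 180. The summed signal of the 9 tested of 10 listed hepatocyte markers lay between 523751 and 731188 over all mice. Among them 2 fell after SP70 at 40 mg/kg, 1 after SP30 and 4 after SP300 at 200 mg/kg, with Ass1, which was dim, at -1.77, -1.13 and -1.02 in these 3 comparisons. Others went the other way. After SP70 at 10 mg/kg 1 of the 9 rose, 0 fell and 8 had a value above 0. After SP30 the signals of Fgb were 98717 to 109548, against 88674 to 96453 in control mice. Those of Tat were 45955 to 64497 against 25313 to 46907. Markers of other cells moved with the treatments too. The summed signal of 8 tested of 10 neutrophil markers was 2392 to 6497 in control mice, 5520 to 13604 after SP300 at 10 mg/kg and 78736 to 147508 in the other 5 groups. Lcn2, which hepatocytes also make in inflammation, carried most of this sum, with 3974 to 11723 after SP300 at 10 mg/kg against 1209 to 3897 in control mice. It was the 1 of the 8 called after SP300 at 10 mg/kg, where 3 of 8 had a value above 0 and the list's median was -0.21. In the other 5 groups 6 to 8 of the 8 rose, S100a8 and S100a9 among them. Retnlg and Ly6g were not among the genes tested. The summed signal of all 10 Kupffer cell markers was 25920 to 37268 in control mice, 10293 to 17433 after SP70 at 10 mg/kg, 8107 to 18321 after SP30, 28514 to 41197 after SP300 at 10 mg/kg and 1860.2 to 5102 in the other 3 groups. The 9 markers of sinusoidal endothelium summed to 21592 to 31714 in control mice to 5025 to 14131 after SP70 at 40 mg/kg and SP30, and to 9226 to 20898 after SP300 at 200 mg/kg. Of these 9, 6, 6 and 5 fell in the 3 comparisons, while Lyve1 rose (1.61, 1.56 and 1.67). Cdh5 also reached higher signals, with ranges that overlapped the 340.8 to 846.5 of control mice. They were 482.7 to 1202.7 after SP70 at 40 mg/kg, 465.7 to 1115.1 after SP30 and 570.9 to 1379.3 after SP300 at 200 mg/kg. In such bulk samples, fewer cells of a type and less RNA per cell cannot be told apart. The part of these shifts in the proteasome results was not tested.

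The promoters of the genes that the results turn on are shown here as the 250 bases before the annotated start, 5′ to 3′, from RefSeq on build GRCm38.p6. They are those of Psmd10, the member with the largest rise, of Psma5 and Psma1, the alpha subunits that rose most often, and of the catalytic subunits Psmb6 and Psmb5. With the signals as deposited, neither Psmb6 nor Psmb5 rose in any comparison with control. With quantile normalization Psmb5 rose after SP30 and after SP300 at 200 mg/kg. Matches to the antioxidant response element (TGACNNNGC), the heat shock element (TTCNNGAA) and the CCAAT box (CCAAT), on either strand, are in capitals.
Psmd10 (chrX:140956712-140956961, minus strand): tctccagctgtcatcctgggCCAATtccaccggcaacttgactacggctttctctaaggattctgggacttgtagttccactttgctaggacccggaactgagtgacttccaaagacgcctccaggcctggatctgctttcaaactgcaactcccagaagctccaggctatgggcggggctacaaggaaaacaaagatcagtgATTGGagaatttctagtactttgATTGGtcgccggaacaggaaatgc
Psma5 (chr3:108256676-108256925, plus strand): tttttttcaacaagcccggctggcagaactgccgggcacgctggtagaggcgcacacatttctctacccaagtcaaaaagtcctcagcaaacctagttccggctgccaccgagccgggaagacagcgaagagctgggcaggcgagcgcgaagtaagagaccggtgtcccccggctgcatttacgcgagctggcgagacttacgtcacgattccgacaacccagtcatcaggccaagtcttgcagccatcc
Psma1 (chr7:114276117-114276366, minus strand): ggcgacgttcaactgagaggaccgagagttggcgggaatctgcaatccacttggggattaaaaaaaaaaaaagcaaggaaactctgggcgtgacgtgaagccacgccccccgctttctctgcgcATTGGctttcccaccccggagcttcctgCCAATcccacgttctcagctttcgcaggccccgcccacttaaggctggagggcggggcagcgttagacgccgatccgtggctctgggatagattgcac
Psmb6 (chr11:70525107-70525356, plus strand): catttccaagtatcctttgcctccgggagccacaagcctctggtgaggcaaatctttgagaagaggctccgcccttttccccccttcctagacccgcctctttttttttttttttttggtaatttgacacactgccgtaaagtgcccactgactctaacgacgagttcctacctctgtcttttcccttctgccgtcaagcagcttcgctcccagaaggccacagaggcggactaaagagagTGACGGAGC
Psmb5 (chr14:54617996-54618245, minus strand): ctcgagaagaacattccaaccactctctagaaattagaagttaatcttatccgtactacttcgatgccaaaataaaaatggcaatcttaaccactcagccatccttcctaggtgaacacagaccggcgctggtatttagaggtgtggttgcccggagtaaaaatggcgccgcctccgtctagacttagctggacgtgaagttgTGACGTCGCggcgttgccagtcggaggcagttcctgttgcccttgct

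The Psmd10 window holds 3 matches to the CCAAT box and none to the antioxidant response element, to which NRF1 and its relative NRF2 bind. The Psma5 window has no match to these 3 motifs, and that of Psma1 has 2 to the CCAAT box. The Psmb6 and Psmb5 windows each hold 1 match to the antioxidant response element, 9 and 47 bases before the start. The other members with a match to it are Psmc6, Psmd12 and Psmd9, whose windows are not shown. After SP30, Psmc6 and Psmd12 rose and Psmd9 fell. RefSeq promoters matched 29 of the 36 members by symbol, with 31 windows. The antioxidant response element matched in 16.1% of these windows and in 10.2% of all 32851 windows of the same length. The CCAAT box matched in 38.7% against 33.8% of all windows, and the heat shock element in 3.23% against 7.17%. A kB site, read as GGG, 5 bases of any kind and CC, matched in 51.6% against 45.8%, and 1 such match lies in each of the Psma5, Psma1 and Psmb6 windows. These matches describe letters and are not sites of binding. Members not matched were Psma8, Psmb1, Psmb2, Psmb7, Psmc3, Psmd3 and Psmd7.

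Members of the proteasome list mostly rose where they changed. Changes are log2 fold changes of the signal plus a pseudocount of 12.5 against control, with the standard error (SE) of the limma fit. A change is called where limma's adjusted p is under 0.05. After SP70 at 10 mg/kg, 8 of 36 members rose and 0 fell, where 18.1% of all genes tested changed, 12.4% upwards and 5.69% downwards. After SP70 at 20 mg/kg, 15 rose and 0 fell (all genes 39.6%, 18.7% upwards and 20.9% downwards). After SP70 at 40 mg/kg, 6 rose and 2 fell (all genes 44.3%, 15.5% upwards and 28.8% downwards). After SP30 at 10 mg/kg, 14 rose and 2 fell (all genes 49.2%, 18% upwards and 31.2% downwards). After SP300 at 200 mg/kg, 12 rose and 1 fell (all genes 30.6%, 12.6% upwards and 18% downwards). With the signals as deposited and both directions counted, members were thus not called more often than other genes after SP70 at 40 mg/kg and SP30. By direction, the 14 of 36 that rose after SP30 were a larger share than the 18% of all genes. The 2 of 36 that fell there were a smaller share than the 31.2%. After SP70 at 40 mg/kg the 6 of 36 that rose lay near the 15.5%, and the 2 that fell lay below the 28.8%. The counts differed with quantile normalization, as given below.

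After SP300 at 10 mg/kg limma called 0 of 36 members, with 1.17% of all genes called, 0.923% upwards and 0.245% downwards. At an unadjusted p under 0.05 there were 17 of 36 members and 1784 of 12678 genes, and 33 of the 36 members had a value above 0, as did 7997 of 12678 genes. The count was 1 (Psmd9) without control mouse 5 or without mouse 4 of the SP300 group, and 2, Psma6 among them, without mouse 5 of that group. The median change of the 36 members was 0.13, 0.20, 0.06, 0.17, 0.20 and 0.15 in the 6 comparisons, ordered as the 3 doses of SP70, then SP30, then the low and the high dose of SP300. The median of all genes tested was 0.01, -0.03, -0.09, -0.12, 0.06 and -0.06. The members' median was 0.08, 0.23, 0.18, 0.24, 0.10 and 0.20 with quantile normalization and 0.10, 0.11, 0.01, 0.19, 0.17 and 0.21 with centred arrays. The members were also brighter and less variable than most genes: the median of their within-group standard deviations was 0.14 on the log2 scale, against 0.24 for all genes tested.

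The counts depended on how the arrays were scaled. With quantile normalization, 19 members rose and 1 fell after SP70 at 40 mg/kg, 24 rose and 1 fell after SP30 and 19 rose and 1 fell after SP300 at 200 mg/kg. With each array centred on its median, 5 rose after SP70 at 10 mg/kg, 7 after SP70 at 20 mg/kg, and 4 rose and 2 fell after SP70 at 40 mg/kg. Of all genes tested, 1264 rose and 773 fell, 1859 rose and 3270 fell, and 1685 rose and 3858 fell at these doses. Calls that held under the deposited scaling and both alternatives numbered 5, 7, 5, 14 and 12 in the 5 groups with calls. After SP70 at 20 mg/kg they were those of Psma1, Psma5, Psma7, Psmc3, Psmc4, Psmd7 and Psmd10, and the other 8 calls there were lost with centred arrays. Leaving out control mouse 4 lowered the count after SP70 at 40 mg/kg from 8 to 5, and leaving out mouse 4 of the SP30 group lowered its count from 16 to 10.

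**Figure D1:**
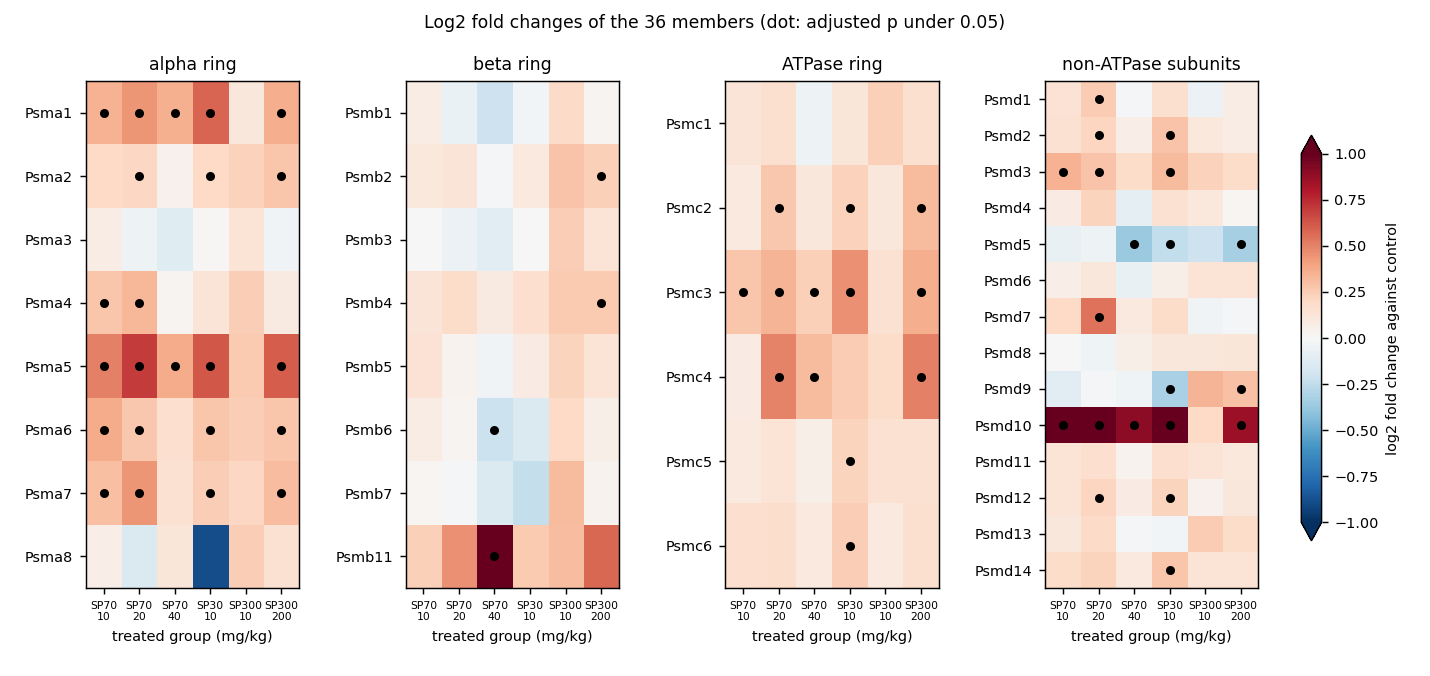
Log2 fold change against control (colour, from -1 to 1, beyond which the colour no longer changes) of each of the 36 members in the 6 treated groups, in panels by ring or place, with a dot where limma's adjusted p is under 0.05. Psmd10 has the deepest red cells, up to 1.62 after SP30, the alpha ring carries most of the dots of the core, and the SP300 10 mg/kg column has no dot.

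Psmd10, also known as gankyrin, rose most among the well-measured members and in 5 of the 6 comparisons. It is a chaperone that binds the ATPase Psmc4 during assembly of the base, and it also binds cell cycle proteins. The signals of the 5 control mice were 1436, 1538, 1490.0, 1840.5 and 1563. They were 3968, 3266, 3091, 3627 and 4104 after SP70 at 10 mg/kg and 4075, 3760.1, 4141, 3631 and 3541 after 20 mg/kg. After 40 mg/kg they were 3215, 2567, 2410.5, 3544 and 3036. Every mouse given SP70 lay above every control mouse. After SP30 the signals were 3984, 4928, 4074, 6607 and 5058, and after SP300 at 200 mg/kg 2834, 3290.0, 2315, 2825 and 3093. After SP300 at 10 mg/kg they were 1841, 1824, 1952, 1496 and 1958, a range that overlaps that of the control mice.

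The log2 fold change of Psmd10 was 1.62 ± 0.12 after SP30 (SE, n = 5 per group, limma adjusted p = 1.93e-13), a mean signal of 4930.3 ± 1056 (SD) against 1573 ± 157. It was 1.19 ± 0.12, 1.28 ± 0.12 and 0.89 ± 0.12 after SP70 at 10, 20 and 40 mg/kg (limma adjusted p = 1.17e-09, 1.2e-10 and 1.37e-07). After SP300 it was 0.86 ± 0.12 at 200 mg/kg (adjusted p = 7.52e-07) and 0.20 ± 0.12 at 10 mg/kg (adjusted p = 0.459, 95% interval -0.04 to 0.44). The 5 rises of Psmd10 were called under each of the 3 scalings. Psmd10 has 1 probe set on the array, so no second probe set could be compared.

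Psmd10 also separated the particles in direct tests. It was higher after SP30 than after SP70 at the same 10 mg/kg by 0.43 ± 0.12 (limma adjusted p = 0.00561) and than after SP300 at 10 mg/kg by 1.42 ± 0.12 (adjusted p = 5.04e-12). SP70 at 10 mg/kg exceeded SP300 at 10 mg/kg by 0.99 ± 0.12 (adjusted p = 8.01e-08). At equal dose the mean levels were thus ordered SP30, SP70, SP300, with each neighbouring pair past the threshold. Among the toxic doses, SP30 exceeded SP70 at 40 mg/kg by 0.73 ± 0.12 (adjusted p = 0.000109) and SP300 at 200 mg/kg by 0.76 ± 0.12 (adjusted p = 7.92e-06). The toxic doses of SP70 and SP300 differed by 0.04 ± 0.12 (adjusted p = 0.878, 95% interval -0.21 to 0.28). Within SP70, 40 mg/kg was lower than 20 mg/kg, with a difference of -0.38 ± 0.12 (adjusted p = 0.0311), a call that did not hold under all 3 scalings, while 20 mg/kg differed from 10 mg/kg by 0.09 ± 0.12 (adjusted p = 0.663). The slope over the dose of SP70 was not called (adjusted p = 0.0593).

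**Figure D2:**
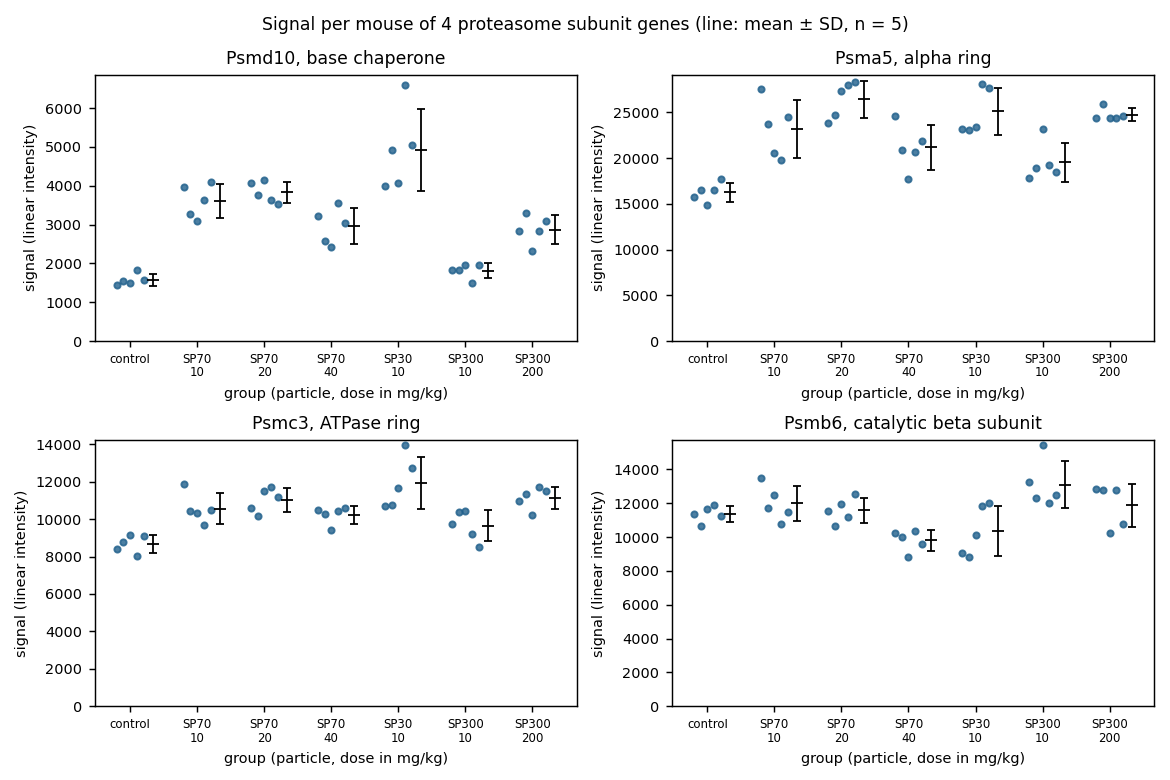
Linear signal per mouse (y axis, from 0) of Psmd10, Psma5, Psmc3 and Psmb6 in the 7 groups (x axis), with points for mice and a line with bars for mean ± SD (n = 5). Psmd10 lies at 1436 to 1840.5 in control mice and 3984 to 6607 after SP30, whereas the SP30 signals of Psmb6 (8830.0 to 12012) surround those of the control mice (10650.4 to 11869.5).

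In the core particle without the dim Psma8 and Psmb11, more alpha ring genes than beta ring genes were called in each of the 5 comparisons that had calls. With Psmb11 counted, each ring had 2 calls after SP70 at 40 mg/kg. Of the 7 alpha ring genes other than Psma8, 5 rose after SP70 at 10 mg/kg, 6 at 20 mg/kg and 2 at 40 mg/kg, 5 after SP30, 0 after SP300 at 10 mg/kg and 5 after SP300 at 200 mg/kg. Their medians were 0.30, 0.33, 0.16, 0.24, 0.23 and 0.28 in that order. None of them fell under any of the 3 scalings. The largest changes were those of Psma5, which forms part of the outer ring. Its signals were 15742, 16550.1, 14854, 16534 and 17690.1 in control mice and 23837, 24709.7, 27345, 27957 and 28303 after SP70 at 20 mg/kg. After SP30 they were 23143, 23119, 23436, 28145 and 27683, and after SP300 at 200 mg/kg 24395, 25949, 24387, 24333 and 24605. No mouse of these 3 treated groups overlapped the control range. After SP70 at 10 mg/kg they were 27589, 23682, 20531, 19766 and 24460.5, after SP70 at 40 mg/kg 24596, 20906, 17726, 20699.5 and 21877 and after SP300 at 10 mg/kg 17819.9, 18957, 23147, 19257 and 18447.

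The log2 fold changes of Psma5 were 0.50 ± 0.09, 0.70 ± 0.09 and 0.37 ± 0.09 after SP70 at 10, 20 and 40 mg/kg, 0.62 ± 0.09 after SP30 and 0.61 ± 0.09 after SP300 at 200 mg/kg. The limma adjusted p-values were 3.2e-05, 4.49e-08, 0.00053, 2.19e-07 and 1.1e-06. After SP300 at 10 mg/kg the value was 0.26 ± 0.09 with an adjusted p of 0.138, although all 5 mice lay above the highest control. A second, dimmer probe set of Psma5, with a mean signal of 10134, gave 0.48, 0.66, 0.42, 0.64, 0.31 and 0.48 in the 6 comparisons. Both bright probe sets thus had values of similar size, and the remaining one had a mean signal of 157, under the filter. With the mean of the 3 probe sets the rise after SP70 at 10 mg/kg was 0.30 with an adjusted p of 0.0548.

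Psma1, another outer ring subunit, had its highest values after SP30. Its signals were 13906, 15003, 14009, 14526 and 15916 in control mice and 20615, 21378, 21719.6, 23301 and 23084 after SP30, with no overlap. The log2 fold change was 0.59 ± 0.07 (limma adjusted p = 4.69e-08), against 0.35, 0.44 and 0.36 after the 3 doses of SP70 and 0.36 after SP300 at 200 mg/kg, all called. In direct tests on the probe set used, Psma1 was higher after SP30 than after SP70 at 10 mg/kg by 0.24 ± 0.07 (adjusted p = 0.0145). It exceeded SP300 at 10 mg/kg by 0.47 ± 0.07 (adjusted p = 2.29e-06). When the 4 probe sets of Psma1 were averaged, most of them dim, the calls after SP70 at 20 mg/kg (adjusted p = 0.145), SP70 at 40 mg/kg (0.055) and SP300 at 200 mg/kg (0.573) were lost, as were the differences between SP30 and SP70 at 10 mg/kg and between the doses of SP300.

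The other alpha ring genes moved less. Psma6 rose by 0.37 ± 0.09 after SP70 at 10 mg/kg (limma adjusted p = 0.00277), and by 0.27, 0.27 and 0.28 after SP70 at 20 mg/kg, SP30 and SP300 at 200 mg/kg. The call after SP70 at 20 mg/kg was lost with centred arrays (adjusted p = 0.131), with the mean of the probe sets (0.0614) and without control mouse 4 (0.0546). The call after SP300 at 200 mg/kg was lost with the mean of the probe sets (0.399), and without control mouse 4 or without mouse 2 or mouse 5 of the SP300 group, with adjusted p-values of 0.0611, 0.0527 and 0.0653. Psma7 rose in the same 4 groups, by 0.30, 0.44, 0.24 and 0.31. Psma2 rose after SP70 at 20 mg/kg, SP30 and SP300 at 200 mg/kg (0.21, 0.20 and 0.28). Psma4 rose after SP70 at 10 and 20 mg/kg (0.28 and 0.33), and both calls were lost with centred arrays, as was that of Psma2 after SP70 at 20 mg/kg. Psma3 was called in no comparison with control, with values of 0.08, -0.05, -0.12, 0.01, 0.14 and -0.04 in the order of the medians above.

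The 7 beta ring genes other than Psmb11 rose in 0, 0, 0, 0, 0 and 2 cases in the 6 comparisons, and 1 fell, after SP70 at 40 mg/kg. Their medians were 0.08, 0.02, -0.11, 0.00, 0.24 and 0.14. With quantile normalization 0, 1, 1, 3, 0 and 4 rose and 0 fell, and the median after SP70 at 40 mg/kg was 0.01. The 2 rises were those of Psmb2, a structural subunit of the inner ring, and Psmb4, after SP300 at 200 mg/kg (0.24 ± 0.09 and 0.27 ± 0.08, limma adjusted p = 0.0403 and 0.0109). A second bright probe set of Psmb4, with a mean signal of 27525, had a value of -0.02 in that comparison, and the call of Psmb4 was lost with the mean of its probe sets. Psmb6 carries the caspase-like site. Its signals were 11338, 10650.4, 11678, 11869.5 and 11262 in control mice and 10262, 9998, 8811, 10353 and 9599.9 after SP70 at 40 mg/kg, which are all below the control range. It fell there by 0.21 ± 0.09 on the log2 scale (adjusted p = 0.0396). This call was lost with quantile normalization (-0.07, adjusted p = 0.412), with no filter on low signals (0.0531), and without control mouse 1, 3, 4 or 5 or mouse 2, 3 or 5 of the SP70 group (adjusted p from 0.0508 to 0.113).

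Psmb5, which carries the chymotrypsin-like site, had signals of 9102, 10079.8, 10648, 10652 and 10649 in control mice and 9796, 9897, 10175, 12499 and 12013 after SP30, and the groups overlapped. Its values were 0.14, 0.04, -0.04, 0.08, 0.22 and 0.14 in the 6 comparisons, none of them called under the deposited scaling. With quantile normalization Psmb5 rose after SP30 (0.16, limma adjusted p = 0.012) and after SP300 at 200 mg/kg (0.18, adjusted p = 0.00962). Psmb7, which carries the trypsin-like site, had values of 0.02, -0.02, -0.14, -0.24, 0.32 and 0.04, again with no call. Without control mouse 1, whose Psmb7 signal of 4984 was the lowest of that group, Psmb7 had a value of -0.35 after SP30 with an adjusted p of 0.0161, and without mouse 4 of the SP30 group one of -0.30 with 0.0498. Psmb1 (-0.20 after SP70 at 40 mg/kg, adjusted p = 0.071) and Psmb3 (-0.11, adjusted p = 0.277) were called in no comparison with control under the deposited scaling. Without mouse 4 of the SP70 group, Psmb1 had -0.27 with an adjusted p of 0.0172. With quantile normalization Psmb3 rose after SP300 at 200 mg/kg (0.17, limma adjusted p = 0.025).

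Psma8, an alpha subunit of the testis, and Psmb11, a catalytic subunit of the thymus, were dim in the liver. Psma8 exceeded the filter of 165 on 9 of 35 arrays and Psmb11 on 10, with signals of 7.75 to 315 and 33.8 to 298. Psmb11 was called after SP70 at 40 mg/kg (1.15 ± 0.38, limma adjusted p = 0.0129), where its signals were 142, 298, 295, 155 and 212 against 94.4, 166, 127, 33.8 and 71.3 in control mice. Psma8 was called in no comparison with control, with values of 0.07, -0.15, 0.12, -0.89, 0.25 and 0.15. For Psmb11 the groups overlapped, and the call was lost without control mouse 4 (adjusted p = 0.0642). The fold of Psmb11 depends on the pseudocount. Both genes are left out of the ring and particle means that follow, which leaves 34 members, 14 of the core and 20 of the regulatory particle.

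The difference between the rings was also seen within each array, where the scaling of the array cancels. The mean log2 signal of the 7 alpha genes minus that of the 7 beta genes was 0.44 ± 0.09 (SD, n = 5) in control mice. It was 0.66 ± 0.08, 0.74 ± 0.05 and 0.67 ± 0.10 after SP70 at 10, 20 and 40 mg/kg, 0.74 ± 0.03 after SP30, 0.40 ± 0.02 after SP300 at 10 mg/kg and 0.58 ± 0.02 after SP300 at 200 mg/kg. The control mice ranged from 0.36 to 0.57. All mice given SP70 at 20 mg/kg (0.67 to 0.80) or SP30 (0.70 to 0.77) lay above that range. The ranges of SP70 at 10 mg/kg (0.55 to 0.74), SP70 at 40 mg/kg (0.57 to 0.84) and SP300 at 200 mg/kg (0.56 to 0.60) touched or overlapped it through control mouse 1. The mice given SP300 at 10 mg/kg ranged from 0.38 to 0.43. This measure was chosen after the values of the rings had been seen, and no test was made of it.

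The regulatory and the core particle were compared within each array, with no test. The mean log2 signal of the 20 regulatory genes minus that of the 14 core genes was -0.96 ± 0.07 (SD, n = 5) in control mice. Against control the difference changed by -0.02, 0.07, 0.06, 0.08, -0.10 and -0.02 in the 6 comparisons. Only the last but one, SP300 at 10 mg/kg, and the values after SP70 at 20 mg/kg and SP30 exceeded the control standard deviation of 0.069. Without the chaperones Psmd5, Psmd9 and Psmd10 the changes were -0.05, 0.05, 0.04, 0.06, -0.10 and -0.03. All 14 core genes had a value above 0 after SP300 at 10 mg/kg, where the core mean was 14.00 ± 0.15 against 13.77 ± 0.06 in control mice, without a called gene.

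**Figure D3:**
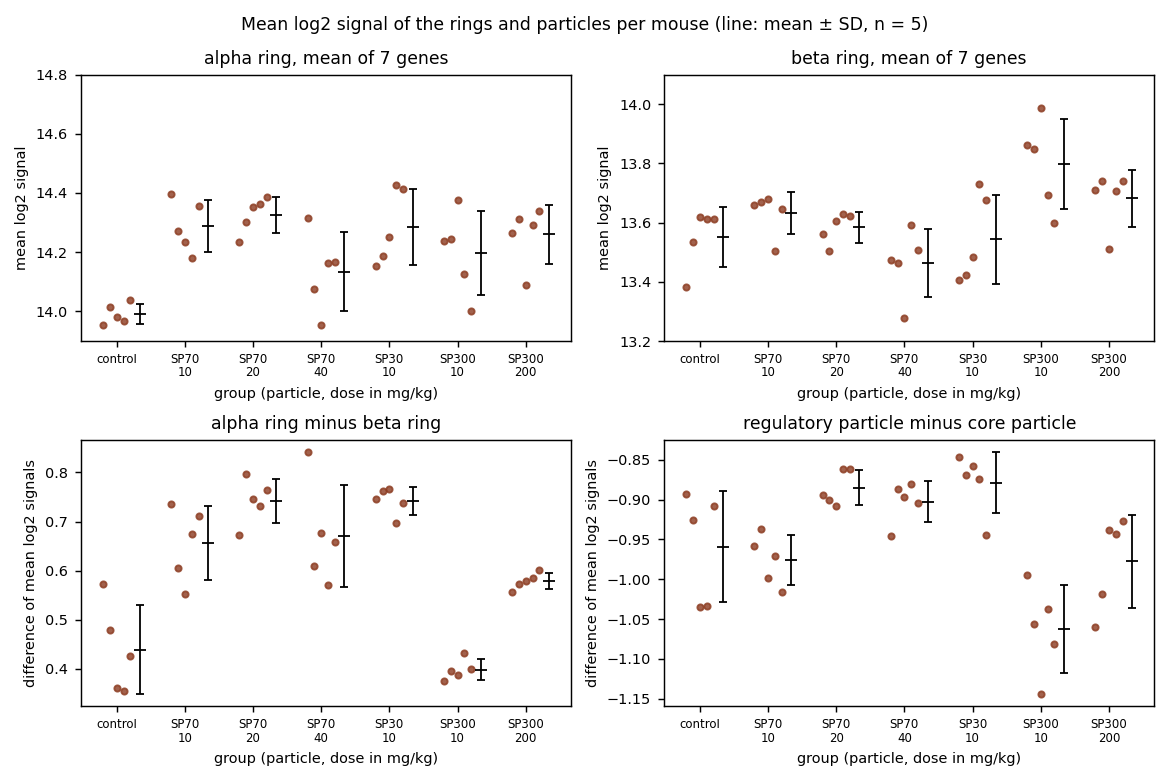
Mean log2 signal per mouse (y axes) of 7 alpha ring and 7 beta ring genes, their difference, and the difference between the regulatory and the core particle in the 7 groups (x axis), with points for mice and a line with bars for mean ± SD (n = 5). The alpha minus beta difference is 0.36 to 0.57 in control mice and 0.70 to 0.77 after SP30, while the regulatory minus core difference stays between -1.14 and -0.85 in all groups.

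Some ATPase genes of the base rose. Of its 6 genes, 1, 3, 2, 4, 0 and 3 rose in the 6 comparisons, and none fell. With quantile normalization 1, 5, 4, 6, 0 and 5 rose, and with centred arrays 0, 2, 0, 3, 0 and 3. Under the deposited scaling Psmc3 rose in 5 of the 6 comparisons. Its signals were 8390.4, 8772, 9132, 8034 and 9087 in control mice and 10707, 10741, 11638, 13939 and 12719 after SP30, without overlap. The changes were 0.28 ± 0.07, 0.34 ± 0.07 and 0.24 ± 0.07 after SP70 at 10, 20 and 40 mg/kg, 0.45 ± 0.07 after SP30 and 0.36 ± 0.07 after SP300 at 200 mg/kg (limma adjusted p = 0.0044, 0.000198, 0.00651, 2.13e-06 and 0.000172). With the arrays centred on their medians, the calls after SP70 at 10 and 40 mg/kg were lost (adjusted p = 0.056 and 0.0741).

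Psmc4, the ATPase that Psmd10 binds, rose by 0.50 ± 0.13 after SP70 at 20 mg/kg and 0.50 ± 0.13 after SP300 at 200 mg/kg (limma adjusted p = 0.00261 and 0.00338). On the probe set used, the signals of Psmc4 were 13478, 13894, 11438, 9972 and 13214 in control mice and 16291, 18086, 15445, 18252 and 19419 after SP300 at 200 mg/kg, without overlap. After SP70 at 40 mg/kg it rose by 0.32 ± 0.13 (adjusted p = 0.0481), with overlapping groups, and this call was lost without control mouse 3 or 4 or without mouse 1, 2, 3 or 4 of the SP70 group (adjusted p from 0.06 to 0.157), with centred arrays (0.0984) and with no filter on low signals (0.0668). After SP70 at 10 mg/kg the value of Psmc4 was 0.08, with 1 mouse at 8311, below the control range. Psmc2 rose after SP70 at 20 mg/kg, SP30 and SP300 at 200 mg/kg (0.27, 0.23 and 0.32). The call of Psmc2 after SP70 at 20 mg/kg was lost with centred arrays. Psmc5 and Psmc6 rose after SP30 (0.22 and 0.24). With centred arrays the call of Psmc5 was lost, and with the mean of the probe sets of each gene those of both. Psmc1 was called in no comparison with control under the deposited scaling, with values from -0.05 to 0.24.

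The scaffold and lid genes are given with the signals as deposited first. Of the 14 Psmd genes, chaperones included, 2, 6, 1, 5, 0 and 2 rose and 0, 0, 1, 2, 0 and 1 fell in the 6 comparisons. Of all genes tested, 12.4%, 18.7%, 15.5%, 18%, 0.923% and 12.6% rose in these comparisons. The shares of all genes that fell were 5.69%, 20.9%, 28.8%, 31.2%, 0.245% and 18%. With quantile normalization 2, 9, 8, 10, 0 and 5 rose and 0, 0, 1, 1, 0 and 1 fell. Of Psmd1, Psmd2 and Psmd4, Psmd1 rose by 0.25 ± 0.09 after SP70 at 20 mg/kg and Psmd2 by 0.21 ± 0.08 there and by 0.28 ± 0.08 after SP30. Psmd4 was not called against control under the deposited scaling. The calls of Psmd1 and Psmd2 at 20 mg/kg were lost with centred arrays, and that of Psmd2 after SP30 held under all 3 scalings. Of the 8 lid genes, 1, 3, 0, 3, 0 and 0 rose and none fell. Psmd3, a structural subunit, rose after SP70 at 10 and 20 mg/kg and SP30 (0.35, 0.28 and 0.32), and each of these calls was lost without control mouse 4 (limma adjusted p = 0.0716, 0.116 and 0.0547). The call at 20 mg/kg was also lost without control mouse 2 or mouse 2, 4 or 5 of the SP70 group (from 0.0537 to 0.116), that after SP30 without mouse 4 of its group (0.0516), and those at 10 and 20 mg/kg with centred arrays (0.0641 and 0.191). Psmd12 rose after SP70 at 20 mg/kg and SP30 (0.21 and 0.22), and the call at 20 mg/kg was lost with centred arrays. Psmd14, the deubiquitinating enzyme of the lid, rose after SP30 by 0.28 ± 0.10 (limma adjusted p = 0.0186). Psmd6, Psmd8, Psmd11 and Psmd13 were called in no comparison with control under the deposited scaling.

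Psmd7, the partner of Psmd14, stood out at 1 dose. Its signals were 6209, 6357, 7337, 6819 and 7457 after SP70 at 20 mg/kg and 4759.7, 4771, 4444, 4541 and 4823 in control mice, without overlap. It rose by 0.55 ± 0.11 (limma adjusted p = 7.8e-05) and exceeded 10 mg/kg by 0.35 ± 0.11 and 40 mg/kg by 0.45 ± 0.11 (adjusted p = 0.0206 and 0.00473). The values against control in the other 5 groups ran from -0.03 to 0.20. With quantile normalization Psmd7 also rose after SP70 at 40 mg/kg (0.22, limma adjusted p = 0.0458) and after SP30 (0.25, adjusted p = 0.0229). With the mean of its probe sets the rise at 20 mg/kg was 0.50 with an adjusted p of 0.0575, and the difference between 40 and 20 mg/kg was not called.

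The other base chaperones had falls as well as a rise. Psmd5, which holds the ATPase Psmc2 and its neighbours before assembly, fell after SP70 at 40 mg/kg. Its signals were 2706, 2540.2, 2667, 2783 and 2671 there and 3165, 3567, 3417, 3351 and 3845 in control mice, without overlap. The changes were -0.37 ± 0.10 after SP70 at 40 mg/kg, -0.34 ± 0.10 after SP300 at 200 mg/kg and -0.25 ± 0.10 after SP30 (limma adjusted p = 0.00355, 0.0126 and 0.0451). The fall after SP70 at 40 mg/kg held under all 3 scalings. The fall after SP300 at 200 mg/kg was lost with centred arrays (adjusted p = 0.0736) and without mouse 2 of that group (0.0601). The fall after SP30 was lost with quantile normalization (0.141), with centred arrays (0.11), and without control mouse 2, 3, 4 or 5 or mouse 2, 3 or 4 of the SP30 group (from 0.0535 to 0.113).

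Psmd9, which holds the ATPases Psmc3 and Psmc6 before assembly, went apart between particles. Its signals were 2438, 1942, 2264, 2567 and 2617 after SP30 and 3549.6, 3479, 3604, 3792 and 3627 after SP300 at 200 mg/kg, against 3139, 3037, 2335, 2919 and 3433 in control mice. The SP30 mice overlapped the control range and the SP300 mice lay above it. It fell after SP30 by 0.32 ± 0.09 on the log2 scale and rose after SP300 at 200 mg/kg by 0.29 ± 0.09 (limma adjusted p = 0.00447 and 0.0174). SP30 was below SP300 at 200 mg/kg, with a difference of -0.61 ± 0.09, and below SP300 at the equal dose of 10 mg/kg, with -0.66 ± 0.09 (adjusted p = 6.07e-06 and 3.18e-07). SP70 at 10 mg/kg was also below SP300 at 10 mg/kg (-0.45 ± 0.09, adjusted p = 0.000504). The other probe sets of Psmd9, which were far dimmer, had -0.53 and 0.62 after SP30. With averaged probe sets the fall after SP30 was lost (-0.08, adjusted p = 0.696), as was the difference between SP70 and SP300 at 10 mg/kg, and without control mouse 3 the rise after SP300 at 200 mg/kg was lost (adjusted p = 0.0941).

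The inducible catalytic subunits rose more than the constitutive ones they can replace. Psmb9 had signals of 1689.8, 1515, 2457, 3060.1 and 2073 in control mice and 4699.7, 5537, 5510.1, 5249 and 6482 after SP30. Psmb10 had 3792, 3775, 3983, 3571 and 2855 and 9834, 11331, 10603, 11790.3 and 11338. Psmb8 had 2798, 2424, 2933, 2694 and 2872 and 5823, 5929, 5597, 6745 and 6364. None of the 3 pairs of groups overlapped. All 3 genes were called in 5 of the 6 comparisons with control and in none after SP300 at 10 mg/kg. The values against control were, in the 6 comparisons, 1.27, 0.87, 0.56, 1.38, 0.33 and 0.88 for Psmb9, 1.14, 1.16, 1.17, 1.61, 0.30 and 1.18 for Psmb10 and 0.93, 0.85, 0.55, 1.15, 0.20 and 0.81 for Psmb8.

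The log2 ratio of each inducible subunit to its constitutive counterpart was compared within arrays, a measure chosen after the values had been seen. The inducible genes had already been called against control in the groups where the ratios rose. The p-values below do not allow for this choice and are no separate support. The level of such a ratio depends on the probe sets, and only its difference between groups is read. After SP30 the ratio of Psmb9 to Psmb6 rose by 1.52, from -2.43 ± 0.35 to -0.91 ± 0.18 (SD, n = 5 per group, exact permutation test, two-sided, p = 0.00794, 0.011 after Benjamini-Hochberg adjustment over 18 tests). The ratio of Psmb10 to Psmb7 rose by 1.85 and that of Psmb8 to Psmb5 by 1.06, with the same p in the exact permutation test, which is the smallest that 252 splits of 5 against 5 mice allow. After SP70 the 3 ratios, in the same order, rose by 1.19, 1.11 and 0.79 at 10 mg/kg, 0.85, 1.18 and 0.81 at 20 mg/kg and 0.78, 1.31 and 0.59 at 40 mg/kg. At 20 and 40 mg/kg the ratio of Psmb9 to Psmb6 overlapped control (exact permutation p = 0.0159 each, 0.0191 adjusted), and the other 7 ratios of SP70 were at the smallest p. After SP300 at 200 mg/kg they rose by 0.82, 1.15 and 0.68, each at the smallest p. After SP300 at 10 mg/kg they differed by 0.13, -0.02 and -0.02 (exact permutation p = 0.611, 0.913 and 0.96). Of the 8 neutrophil markers 6 to 8 rose in each of the 5 groups in which these ratios rose, with the summed signals given above. Monocyte markers moved too, and all 7 tested rose after SP70 at 10 mg/kg. In these 5 groups F13a1, Vcan, Chil3 and Plac8 lay above every control mouse. Ccr2, Fn1 and Itgam overlapped the control mice in some of the groups. The part of either cell type in the ratios was not tested.

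**Figure D4:**
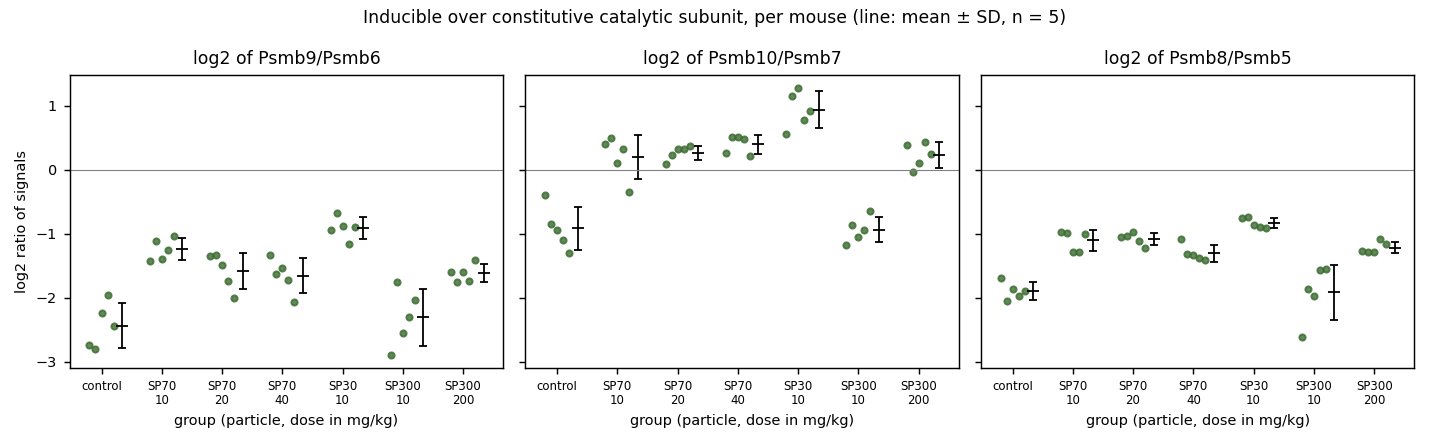
Log2 ratio of the signals of an inducible catalytic subunit and the constitutive subunit whose place it can take (y axis), per mouse in the 7 groups (x axis), with points for mice and a line with bars for mean ± SD (n = 5). For Psmb10 over Psmb7 the control mice lie between -1.30 and -0.39 and the SP30 mice between 0.55 and 1.28, and the mice given SP300 at 10 mg/kg lie among the control mice.

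Genes that serve the proteasome moved in different directions. Of 5 chaperones of core assembly, none rose in any comparison, and 0, 1, 2, 1, 0 and 0 fell in the 6 comparisons. Of all genes tested, 5.69%, 20.9%, 28.8%, 31.2%, 0.245% and 18% fell. Psmg1, a chaperone of alpha ring assembly, fell by 0.42 ± 0.08 on the log2 scale after SP70 at 40 mg/kg (limma adjusted p = 0.000121), and it was also called at 20 mg/kg (-0.21) and for SP30 (-0.40). Pomp, which promotes the completion of the core, was -0.21 after SP70 at 40 mg/kg (adjusted p = 0.0319) and not called elsewhere. Of 4 tested genes of other regulators, Psmf1, an inhibitor of the core, fell in 4 comparisons (-0.30, -0.39, -0.46 and -0.24 after SP70 at 20 and 40 mg/kg, SP30 and SP300 at 200 mg/kg). Psme1, a subunit of the cap that goes with the immunoproteasome, rose after SP70 at 10 mg/kg, SP30 and SP300 at 200 mg/kg (0.31, 0.34 and 0.24). Psme3 rose after SP30 by 0.33 and Psme4 fell after SP70 at 40 mg/kg by 0.22.

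Of 9 tested genes of the NRF1 route, 5 rose after SP70 at 10 mg/kg, 3 rose and 1 fell at 20 mg/kg, 4 rose and 2 fell at 40 mg/kg, 5 rose and 1 fell after SP30, and 2 rose and 2 fell after SP300 at 200 mg/kg. In these comparisons 18.1%, 39.6%, 44.3%, 49.2% and 30.6% of all genes tested were called, and the count at 20 mg/kg lay near that share. Nfe2l1 itself was called after SP70 at 10 mg/kg (0.38 ± 0.10, limma adjusted p = 0.00713), with values of -0.05, -0.11, 0.20, -0.15 and -0.20 in the other comparisons. Nfe2l2, which encodes NRF2, rose after SP70 at 10 and 40 mg/kg and SP30 (0.78, 0.40 and 0.97). Of their small Maf partners, Maff rose by 1.83 and 2.80 after SP70 at 10 and 40 mg/kg, by 2.91 ± 0.40 after SP30 (limma adjusted p = 2.29e-07) and by 1.09 after SP300 at 200 mg/kg. Mafk rose after each dose of SP70 and after SP30 (0.57, 0.65, 0.82 and 1.33), and Mafg fell after the highest doses of SP70 and SP300 (-0.53 and -0.58). Ngly1, the enzyme that removes sugar chains from NRF1, fell in 4 comparisons, with values from -0.44 to -0.30. Of the list of ubiquitin genes and activating enzymes, 1 of 6 was tested, Uba6, which rose after SP70 at 20 mg/kg by 0.51 ± 0.09.

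Of 12 tested receptors and enzymes that dock on the proteasome, 2 rose after SP70 at 10 mg/kg, 5 rose and 2 fell at 20 mg/kg, 2 rose and 6 fell at 40 mg/kg, 4 rose and 5 fell after SP30, and 2 rose and 2 fell after SP300 at 200 mg/kg. With both directions counted, these are 16.7%, 58.3%, 66.7%, 75% and 33.3% of the list. The shares of all genes tested were 18.1%, 39.6%, 44.3%, 49.2% and 30.6%. The first and the last share of the list thus lay near those of all genes. Zfand5, which stimulates degradation by the proteasome, rose by 0.58, 0.47 and 0.65 after the 3 doses of SP70 and by 0.76 ± 0.11 after SP30 (limma adjusted p = 4.53e-07). Txnl1, a thioredoxin bound to the regulatory particle, rose in 5 comparisons, with values from 0.20 to 0.36. Ubqln1, a shuttle that carries ubiquitinated proteins, fell after SP70 at 20 and 40 mg/kg, SP30 and SP300 at 200 mg/kg (-0.36, -0.62, -0.38 and -0.43). Uchl5, a deubiquitinase of the base, fell after SP70 at 40 mg/kg and SP30 (-0.39 and -0.45).

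The doses of SP70 were also compared directly. At 20 against 10 mg/kg, 2 members were higher, Psmc4 by 0.41 ± 0.13 and Psmd7 (all genes 16.9%, 4.98% higher and 12% lower). With the mean of the probe sets neither was called. At 40 against 20 mg/kg, 8 were lower and 0 higher (all genes 11.5%, 8.68% lower and 2.78% higher). They were Psma4, Psma5, Psma7, Psmd1, Psmd4, Psmd5, Psmd7 and Psmd10, with values from -0.45 to -0.27. At 40 against 10 mg/kg, 5 were lower (all genes 30.5%, 25.3% lower and 5.21% higher), led by Psmd5 (-0.30 ± 0.10, limma adjusted p = 0.0267) and Psmb6 (-0.29 ± 0.09, adjusted p = 0.00899). These directions depended on the scaling. Quantile normalization moved the median of all genes from -0.13 to 0.00 at 40 against 10 mg/kg and from -0.09 to 0.01 at 40 against 20 mg/kg. It gave 5 members higher and 0 lower at 40 against 10 mg/kg, 1 higher and 4 lower at 40 against 20 mg/kg and 7 higher at 20 against 10 mg/kg. With centred arrays the 3 counts were 2 lower, 1 lower (Psmd7) and 0.

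Single mice also moved these counts. At 40 against 20 mg/kg the count of 8 was 1 without mouse 3 and 3 without mouse 2 of the 40 mg/kg group, 4 without mouse 3 or mouse 5 and 5 without mouse 4 of the 20 mg/kg group. At 40 against 10 mg/kg the count of 5 was 2 without mouse 2 or mouse 3 and 8 without mouse 1 of the 40 mg/kg group, and 3 without mouse 1 or mouse 5 of the 10 mg/kg group. At 20 against 10 mg/kg the count of 2 was 1 without mouse 2, 3 or 4 of the 10 mg/kg group or mouse 4 or 5 of the 20 mg/kg group.

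Over the linear slope across 0, 10, 20 and 40 mg/kg of SP70, 2 members rose and 3 fell (all genes 39.3%, 11.2% upwards and 28% downwards). The slope per mg/kg was 0.00746 for Psma1 (limma adjusted p = 0.0232), 0.02876 for the dim Psmb11 (adjusted p = 0.0117), -0.00909 for Psmd5 (adjusted p = 0.00536), -0.00606 for Psmb6 (adjusted p = 0.0108) and -0.00609 for Psmb1 (adjusted p = 0.0218). With quantile normalization 18 members rose over the slope and 0 fell, and with centred arrays 1 rose and 3 fell, so that the rise of Psmb11 alone was called under all 3 scalings. Without mouse 4 of the 10 mg/kg group, 4 rose and 4 fell.

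At the equal dose of 10 mg/kg, SP30 and SP300 had the most calls. Of the members, 5 were higher and 5 lower after SP30 than after SP300 (all genes 51.7%, 16.2% higher and 35.5% lower). Higher were Psma1, Psma5, Psmc3, Psmd1 and Psmd10. Lower were the beta ring genes Psmb1, Psmb3, Psmb6 and Psmb7 and the chaperone Psmd9. The difference of Psmb7 was -0.55 ± 0.12 and that of Psmb6 -0.34 ± 0.09 (limma adjusted p = 0.000257 and 0.00095), and that of Psma5 was 0.36 ± 0.09 (adjusted p = 0.000569). Of these 10 calls, 8 held under all 3 scalings, 5 higher and 3 lower (Psmb6, Psmb7 and Psmd9). With quantile normalization the counts were 17 higher and 3 lower, and with centred arrays 7 and 3.

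SP30 and SP70 at 10 mg/kg differed in 2 members, Psma1 and Psmd10, both higher after SP30 (all genes 28.9%, 5.37% higher and 23.5% lower), and quantile normalization gave 10 members higher after SP30. SP70 and SP300 at 10 mg/kg differed in 5 (all genes 20.6%, 10.4% higher and 10.2% lower after SP70). Psma1, Psma5 and Psmd10 were higher and Psmb3 and Psmd9 lower after SP70. Quantile normalization gave 5 higher and 2 lower, and centred arrays 1 higher (Psmd10) and 1 lower (Psmd9). The count of 5 was 3 without mouse 1 or mouse 2 of the SP70 group or mouse 1, 2 or 4 of the SP300 group, and 2 without mouse 5 of the SP70 group.

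The doses the study had found toxic were compared next. SP30 at 10 mg/kg and SP70 at 40 mg/kg differed in 1 member, Psmd10 (all genes 5.73%, 3.69% higher and 2.04% lower after SP30). Centred arrays gave 4 members higher after SP30 and quantile normalization 1 higher and 1 lower, and the count was 3 without mouse 1 and 2 without mouse 2 of the SP30 group and 2 without mouse 1 of the SP70 group. SP30 and SP300 at 200 mg/kg differed in 4 (all genes 29.1%, 11.6% higher and 17.5% lower after SP30). Psma1, Psmd2 and Psmd10 were higher and Psmd9 lower after SP30. Centred arrays left Psmd10 and Psmd9. SP70 at 40 mg/kg was lower than the 200 mg/kg dose of SP300 in 4 (all genes 15.4%, 10.4% lower and 5.02% higher). They were Psma2, Psmb3, Psmb6 and Psmd9, with values from -0.33 to -0.23, and that of Psmd9 was not called with averaged probe sets. Centred arrays, which moved the median of all genes from -0.06 to -0.16 here, gave 13 lower, and quantile normalization 1 lower (Psmd9). This count of 4 was 1 without mouse 3 and 2 without mouse 5 of the SP70 group, 1 without mouse 1, 2 or 4, 2 without mouse 5 and 8 without mouse 3 of the SP300 group.

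Between the doses of SP300, 4 members were higher and 1 lower at 200 than at 10 mg/kg (all genes 31.7%, 9.38% higher and 22.3% lower). Psma5 was higher by 0.35 ± 0.09, Psma1 by 0.25 ± 0.07, Psmc3 by 0.21 ± 0.07 and Psmd10 by 0.66 ± 0.12, with limma adjusted p-values of 0.00195, 0.00946, 0.0221 and 5.36e-05. Psma3 was lower by 0.18 ± 0.07 (adjusted p = 0.0421). The 4 rises held under all 3 scalings, which gave 13 higher with quantile normalization, 6 higher with centred arrays and no member lower in either. With averaged probe sets those of Psma1 and Psma5 were lost. Without mouse 4 of the 200 mg/kg group 3 members were higher and none lower. The comparisons with control share the same 5 control mice, and those between treated groups share treated mice, so their counts are not independent of each other.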

How the data were processed

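The files hold MAS5 signals of Affymetrix Mouse 430 2.0 arrays, per the submitters' processing notes, deposited by the authors as linear intensity values for 45101 probe sets on 35 arrays. A scaling between arrays, not given in the sources used here, may have been applied. The mean of an array without its extreme 2% on each side ran from 887 to 1139. Genes were named for probe sets with 1 gene symbol (34945 probe sets, 18193 genes). Signals over 165 on at least 5 arrays were required, the probe set with the highest mean log2 signal stood for a gene, and log2(signal + 12.5) was tested with limma 3.58.1 (R 4.3.3) over 7 groups of 5 mice, with a trended prior and Benjamini-Hochberg adjustment at 0.05 over 12678 genes. The filter is the median of all signals and the pseudocount their 10th percentile. The fit shares 1 estimate of spread over all groups.

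By rule, the text names per comparison with control the 4 highest and 4 lowest called members whose 5 treated mice all lay on 1 side of the control mean, in direct comparisons and the slope the 2 highest and 2 lowest called, and always Psmb5, Psmb6 and Psmb7. Of each gene list it names up to 4 members with the smallest adjusted p in 3 of the comparisons with control, and always Psmb8, Psmb9, Psmb10, Pomp and Nfe2l1. The other members are named so that each of the 36 is accounted for, which was decided after their values were seen. The members and gene lists were chosen with earlier results of these data known. The ring difference, the means without chaperones or dim genes, and the catalytic ratios with their exact permutation test were added after the data were seen. Promoters are RefSeq windows matched by symbol. Alternatives were another scaling, pseudocount, filter and probe set rule, the compared groups alone, a replicate block, and each mouse left out. The fit was tested on simulated data. Each mouse has 1 array, and the number of arrays limits the precision.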

Additional observations from a re-analysis of the deposited data

Results flagged for a closer look

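Mice that stood apart within their group were looked for in 126 sets of 5 values, with a gap to the nearest mouse above 0.71 of the range. This held in 8 sets, where chance gives about 6.3. The Psmb7 signal of control mouse 1 was 4984, against 6825 to 7669 in the other control mice. The Psmd9 signal of mouse 3 given SP70 at 20 mg/kg was 3708, against 2576 to 2861. Mouse 3 given SP70 at 40 mg/kg was low for Psmb5 (8721 against 10122 to 10507) and Psmc3 (9398 against 10294 to 10607). The Psmd10 signal of mouse 4 given SP300 at 10 mg/kg was 1496, against 1824 to 1958. Among mice given SP300 at 200 mg/kg, mouse 2 was high for Psma5 (25949 against 24333 to 24605). In the same group mouse 3 was low for Psmb5 (10287 against 11327 to 11759) and for the core mean on the log2 scale (13.80 against 13.99 to 14.04).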

How the results depend on the processing

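Counts of members called, of 36, are given in this paragraph as totals of both directions. With quantile normalization they were 20 after SP70 at 40 mg/kg, 25 after SP30 and 20 after SP300 at 200 mg/kg against control. Between groups they were 7 (SP70 at 20 against 10 mg/kg), 5 (40 against 20), 13 (SP300 at 200 against 10), 10 (SP30 against SP70 at 10), 20 (SP30 against SP300 at 10), 2 (SP30 against SP70 at 40), 1 (SP70 at 40 against SP300 at 200) and 18 for the slope. With centred arrays they were 5 and 7 after SP70 at 10 and 20 mg/kg, and between groups 0 (SP70 at 20 against 10), 1 (40 against 20), 2 (40 against 10), 2 (SP70 against SP300 at 10), 4 (SP30 against SP70 at 40), 2 (SP30 against SP300 at 200) and 13 (SP70 at 40 against SP300 at 200). With the mean of all probe sets they were 0 (SP70 at 20 against 10), 3 (40 against 10), 2 (SP300 at 200 against 10) and 3 (SP70 against SP300 at 10). With the compared groups alone they were 1 (SP70 at 20 against 10), 3 (40 against 10), 1 (SP30 against SP70 at 10) and 2 (SP70 against SP300 at 10). Leaving out each mouse gave 6 to 8, 10 to 18 and 5 to 8 after SP70 at 10, 20 and 40 mg/kg, 10 to 17 after SP30, 0 to 2 and 10 to 13 after SP300 at 10 and 200 mg/kg and 4 to 8 for the slope. Between groups it gave 1 to 3 (SP70 at 20 against 10), 1 to 7 (40 against 20), 2 to 8 (40 against 10), 3 to 6 (SP300 at 200 against 10), 2 to 3 (SP30 against SP70 at 10), 9 to 13 (SP30 against SP300 at 10), 2 to 5 (SP70 against SP300 at 10), 1 to 3 (SP30 against SP70 at 40), 3 to 5 (SP30 against SP300 at 200) and 1 to 8 (SP70 at 40 against SP300 at 200). The cause of these changes was not tested.

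Mice with the same replicate number share only that number: the mean correlation of their deviations was -0.000692. With the replicate number as a block the counts were 8, 15, 7, 14, 0 and 12 against control, and the calls of Psmc4 after SP70 at 40 mg/kg (limma adjusted p = 0.06) and of Psmd5 after SP30 (0.0549) were lost. The fit on simulated data recovered 71.2% to 75.8% of changes of 1 on the log2 scale, 29.9% to 43.3% of changes of 0.5 and 1.49% to 5.97% of changes of 0.25 over genes of all levels. In it 66 or 67 of 12678 genes had each size of change, far fewer than changed in most comparisons here, which makes the adjusted p harder to pass. The members were also less variable than most genes. These shares therefore do not apply to the members.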

Other observations

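Some enzymes that remove or edit ubiquitin chains had large fold changes, among them Tnfaip3, Usp18 and Usp2. Of 10 tested of 11 listed, 3 rose and 1 fell after SP70 at 10 mg/kg, 4 rose and 1 fell at 20 and at 40 mg/kg, 5 rose and 2 fell after SP30, and 4 rose and 0 fell after SP300 at 200 mg/kg. These are 40%, 50%, 50%, 70% and 40% of the list, where 18.1%, 39.6%, 44.3%, 49.2% and 30.6% of all genes tested were called. The list's median was 0.24, 0.18, 0.18, 0.22 and 0.19, against 0.13, 0.20, 0.06, 0.17 and 0.15 for the proteasome genes, with no test of the difference, and Usp7 and Otub1 were not called. Tnfaip3, which encodes the inflammation regulator A20, had log2 fold changes of 3.99, 3.66 and 5.21 after the 3 doses of SP70, 5.13 ± 0.29 after SP30 (SE, n = 5 per group, limma adjusted p = 1.84e-16) and 2.92 after SP300 at 200 mg/kg, all called. Usp18, which removes the ubiquitin-like protein ISG15, rose by 1.78, 0.91 and 1.11 after SP70, 2.34 after SP30 and 0.75 after SP300 at 200 mg/kg. Cyld, which cuts chains that signal to NF-kB, rose after SP70 at 10 and 20 mg/kg and SP30 (0.57, 0.48 and 0.80). Usp2 fell after each dose of SP70 and after SP30, with values of -1.15, -0.86, -1.29 and -1.38. After SP300 at 10 mg/kg limma called 0 of the 10, and 0 at an unadjusted p under 0.05, where it called 1.17% of all genes, and Tnfaip3 had 0.43 and Usp18 0.44.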
